A study of Mus musculus with 60 samples.

Results

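The 10 genes described here, Apoa1, Apoa2, Apoa4, Apoa5, Apob, Apoc1, Apoc2, Apoc3, Apoe and Mttp, encode the main plasma apolipoproteins of the mouse and the transfer protein that loads lipid onto the nascent particle. They were the 10 rows of the 54532 genes in the deposited count table whose symbol matched one of these names. Gene expression was measured by sequencing of the 3' ends of polyadenylated RNA in 15 tissues of female C57BL6/J mice aged 6 weeks, which were perfused with buffered saline containing EDTA before dissection. Each tissue was represented by 4 libraries, 60 in all: liver, small intestine, colon, kidney, heart, lung, brain, skin, spleen, thymus, bone marrow, inguinal lymph node, mesenteric lymph node, female reproductive tract and blood. The blood samples carry a title that names peripheral blood mononuclear cells and a tissue label of whole blood. All groups shared strain, sex and age, and tissue was the only difference that the labels state. The sample numbers in the titles run in blocks by tissue, so any effect of their order cannot be told apart from tissue.

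Lipoproteins carry triglyceride and cholesterol through plasma and lymph. Hepatocytes secrete very low density lipoproteins and enterocytes secrete chylomicrons, both built on a molecule of apolipoprotein B to which microsomal triglyceride transfer protein, the product of Mttp, adds lipid in the endoplasmic reticulum. The small exchangeable apolipoproteins then move between particles, where they form high density lipoprotein, activate or restrain lipases, and serve as ligands of receptors, a role in which apolipoprotein E also acts outside the liver in macrophages and astrocytes.

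The genes lie in 2 clusters and at 3 single loci (GRCm38, GENCODE M21). On chromosome 9, Apoa1 (46228580 to 46230466, plus strand), Apoc3 (46232933 to 46235636, minus strand), Apoa4 (46240696 to 46243459, plus strand) and Apoa5 (46268633 to 46271919, plus strand) are neighbours. On chromosome 7, Apoc2 (19671579 to 19677941), Apoc1 (19689481 to 19692660) and Apoe (19696109 to 19699188) lie on the minus strand with Apoc4 (19678083 to 19681479) between the first pair. Apoa2 is on chromosome 1 (171225054 to 171226379, plus strand), Apob on chromosome 12 (7977648 to 8016835, plus strand) and Mttp on chromosome 3 (138089854 to 138144968, minus strand).

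The promoters of 6 members are shown because they stand for the tissue patterns described next: intestine with little liver (Apoa4), liver with intestine (Apoa1), liver with intestine and kidney (Apob), liver alone (Apoa2 and Apoa5) and all tissues (Apoe). RefSeq promoters of GRCm38.p6 matched 8 of the 10 members, and Apoc1 and Apoc3 were not among them. Each run is printed 5' to 3' on the gene's strand, up to the base before its RefSeq or GENCODE start site, whichever is more upstream. The most upstream RefSeq site near the GENCODE start was used. Farther sites, such as one of Apoa2 at -3490 from the GENCODE start, were left out. Letters are in lower case, with capitals for TATAAA on the given strand and for the hepatocyte nuclear factor 4 motif CAAAGTNCA on either strand. The regions are chr9:46240594-46240695 for Apoa4, chr9:46228380-46228579 for Apoa1, chr12:7977427-7977647 for Apob, chr1:171224804-171225053 for Apoa2, chr9:46268358-46268607 for Apoa5, all on the plus strand, and chr7:19699189-19699438 on the minus strand for Apoe.
Apoa4: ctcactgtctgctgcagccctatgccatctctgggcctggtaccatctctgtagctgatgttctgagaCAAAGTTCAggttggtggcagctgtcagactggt
Apoa1: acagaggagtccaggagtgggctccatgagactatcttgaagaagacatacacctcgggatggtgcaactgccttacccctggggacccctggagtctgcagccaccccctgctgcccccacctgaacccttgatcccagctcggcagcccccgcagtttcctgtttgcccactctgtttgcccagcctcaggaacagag
Apob: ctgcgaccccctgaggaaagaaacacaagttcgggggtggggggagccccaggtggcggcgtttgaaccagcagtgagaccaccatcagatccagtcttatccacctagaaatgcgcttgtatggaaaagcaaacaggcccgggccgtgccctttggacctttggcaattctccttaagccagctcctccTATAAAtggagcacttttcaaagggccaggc
Apoa2: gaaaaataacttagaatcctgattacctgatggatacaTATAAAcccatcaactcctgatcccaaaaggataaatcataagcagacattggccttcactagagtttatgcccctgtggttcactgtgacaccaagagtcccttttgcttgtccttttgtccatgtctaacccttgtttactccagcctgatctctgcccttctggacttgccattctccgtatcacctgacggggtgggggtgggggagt
Apoa5: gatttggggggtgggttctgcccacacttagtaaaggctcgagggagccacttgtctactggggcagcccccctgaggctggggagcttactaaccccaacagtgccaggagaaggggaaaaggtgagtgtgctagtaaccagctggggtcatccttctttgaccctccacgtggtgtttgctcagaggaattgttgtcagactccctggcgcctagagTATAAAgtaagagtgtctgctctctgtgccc
Apoe: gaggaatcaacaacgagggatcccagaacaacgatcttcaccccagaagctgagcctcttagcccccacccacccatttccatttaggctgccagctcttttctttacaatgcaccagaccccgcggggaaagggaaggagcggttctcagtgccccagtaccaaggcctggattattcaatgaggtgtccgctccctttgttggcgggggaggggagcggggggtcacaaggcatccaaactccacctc
The motif CAAAGTNCA was found in the Apoa4 run alone among these 6, at position -182 from the RefSeq start site. It was found in 1.412% of 32851 promoter windows. These reach from 250 bases before to 50 after the start and are longer than the printed runs, so the shares are not like for like. TATAAA was found at -60 in Apob, at -31 in Apoa5 and at -212 in Apoa2, also counted from the RefSeq site, and in 8.319% of all windows. In Apoa4, Apoa1 and Apob the run ends before the GENCODE start, which lies 148, 50 and 29 bases upstream of the RefSeq site. Another RefSeq window of Apoe, not printed, held TATAAA at -96. No match in the other runs says only that these letters are not there, and the search is a description of the sequence.

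Levels are given as CPM, the library-size-normalised read count, scaled by the trimmed mean of M values (TMM), which corrects for a few very abundant genes taking up a library. Library totals ran from 353605 to 5211133 counts with a median of 2649668. Because the assay counts 3' ends, a level is compared between tissues within a gene and never between genes. Together the 10 genes held 5.05% ± 0.101 (SD, n = 4) of all counts in liver and 1.39% ± 0.287 in small intestine, against 0.365% ± 0.0764 in inguinal lymph node and 0.0240% ± 0.00239 in heart, the lowest. Markers of the producing organs were highest in the tissues of that label. The summed level of 12 hepatocyte genes was 185110.0 to 212903 CPM in liver. Brain had the next highest mean, with at most 1814 CPM. The list is not exclusive: it holds Ttr, also among 5 genes listed for choroid plexus, which summed to 1362 to 1683 CPM in brain. The 10 enterocyte genes, some of which liver also expresses, summed to 16189 to 26001 CPM in small intestine. They summed to 6915 to 10036 CPM in liver and 973 to 1568 CPM in colon. Brain replicate 3 and liver replicate 4 held transcripts of small intestine: the Paneth cell defensin Defa24 stood at 394 CPM in that brain library against 4.61 to 8.53 CPM in the other 3, and at 241 CPM in that liver library against 12.8 to 27.3 CPM. Blood replicate 1 and heart replicate 4 held more Alb (albumin) than the other libraries of their tissue. It was at 96.3 CPM against 22.2 to 24.9 in blood and at 95.2 CPM against 23.6 to 50.5 in heart. Sums for markers of other organs also varied among blood libraries, from 25.3 to 106.5 CPM for 6 cardiomyocyte genes. They varied less for 7 keratinocyte and sebocyte genes, at 231.9 to 253.3 CPM. Whether the albumin excess in blood was particular to liver genes was not tested.

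**Figure D1:**
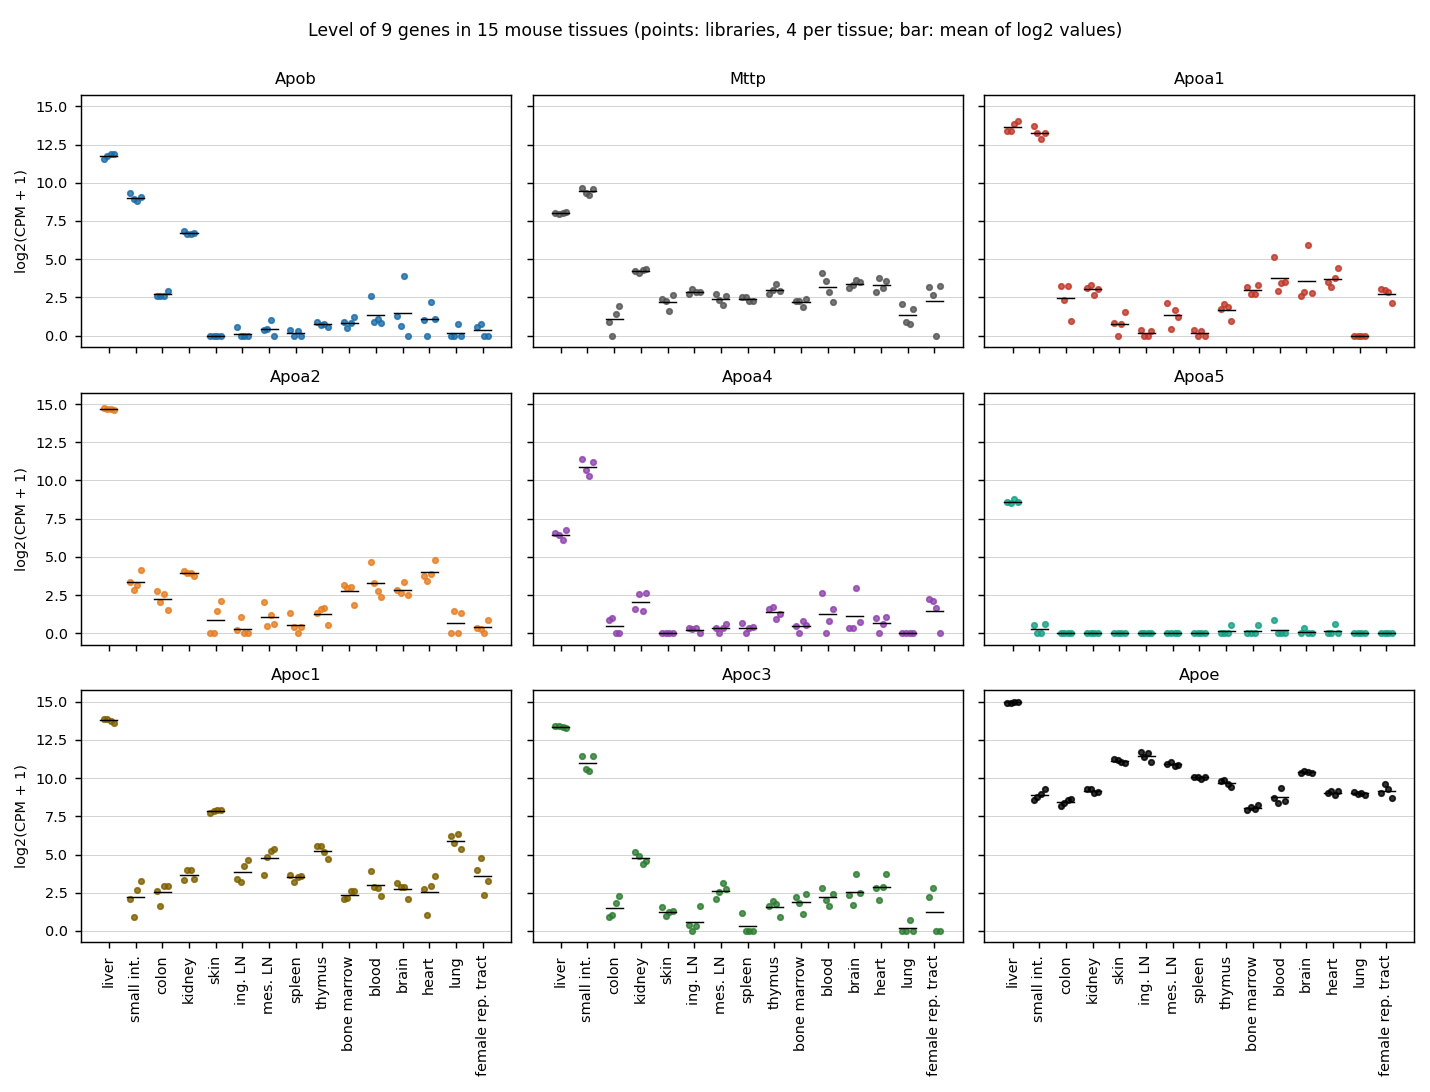
Level of 9 genes in each of the 60 libraries, as log2(CPM + 1) on the vertical axis and tissue on the horizontal axis; points are libraries and bars the mean of the log2 values of a tissue. Liver is the highest tissue for 7 of the 9 genes and small intestine for Apoa4 and Mttp, Apoe is far above 0 in every tissue, and the lone high point of Apoa1 in brain is replicate 3.

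Every member that the assay could test was called higher in liver than the mean of the other tissues on the log scale. A tissue can be called higher in this way while another stands far above it. Apoa4, for example, averaged 88.2 CPM in liver and 2013 CPM in small intestine. Of the 10 genes, 9 passed the filter on low counts, and all 9 were called higher in liver against the equally weighted mean of the other 14 tissues (adjusted p below 0.05 and a log2 fold change past 1), a call made for 18.4% of the 18562 genes tested. Their median log2 fold change was 11.21 against -0.25 over all genes. The member that the filter removed was Apoc2, with 1 read. Apoa5 had 2252 reads in liver and at most 2 in any other tissue. It passed the filter through liver alone, so its liver call was close to fixed. Small intestine was the other organ in which most members were called higher, 6 of 9 with 2 lower, against 19.9% and 8.5% of all genes, and a median of 6.64 against 0.01. Apoa4 (11.28), Apoa1 (11.22) and Apob (8.30) had large differences there, and Apoa5 (0.98) was not called. In kidney 4 of the 9 were higher, where 21.8% of all genes were, and none lower, where 9.52% were. No member was lower in liver, where 16.7% of all genes were called lower. As these are whole tissues, more cells of a producing type and more RNA in each cell cannot be told apart.

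Apob, the structural protein of very low density lipoproteins and chylomicrons, formed a series of 4 tissues that did not overlap. In liver the 4 libraries read 3019, 3439.9, 3688 and 3691 CPM, and in small intestine 649, 480.2, 448 and 533 CPM. Kidney followed with 111, 101, 98.8 and 105 CPM, and colon with 5.09, 5.15, 5.04 and 6.69 CPM. Every liver library thus lay above every intestinal library, and every intestinal library above every kidney library. No other tissue averaged more than 3.95 CPM, the mean in brain, where replicate 3 read 13.8 and the others 0 to 1.40 CPM. Skin had no read in 4 libraries, which allows up to 0.307 CPM by counting error alone. Against the other tissues Apob was called higher in liver (adjusted p = 7.58e-53), small intestine (5.69e-43) and kidney (log2 fold change 5.79, adjusted p = 9.02e-31), and in colon with a log2 fold change of 1.25 (adjusted p = 0.0414), where 17.7% of all genes were called higher. Fold changes of Apob, Apoa1, Apoa4 and Apoa5 against the mean of the other tissues are printed with no standard error, because each of them had a tissue with no read and the size then depends on the small count added by the fit. A call on the high side close to the threshold, as that of Apob in colon, thus depends on that count as well. For the same reason a missing call on the low side carries no information for these 4 genes. Of them Apoa1 in lung (adjusted p = 9.65e-05) and Apob in skin (adjusted p = 0.000263), the tissues in which each had no read, were called lower.

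Mttp, the transfer protein that Apob needs for lipidation, was ordered the other way between the main producing organs. Small intestine read 811, 636, 583 and 765 CPM and liver 263, 248, 264 and 275 CPM. Kidney read 17.7, 16.1, 18.9 and 19.8 CPM, and these 3 tissues did not overlap. Brain came next at 9.70 CPM ± 1.76 (SD, n = 4) and below it all neighbours in the order overlapped, down to 1.35 CPM ± 1.22 in colon. The log2 fold change against the other tissues was 6.64 ± 0.09 (SE) in small intestine and 5.12 ± 0.11 in liver. In kidney it was 1.00 ± 0.16, just short of the size needed for a call, and Mttp was called lower in 6 tissues: colon (-2.95 ± 0.44), lung (-2.60 ± 0.39), bone marrow (-1.49 ± 0.26), skin (-1.44 ± 0.26), spleen (-1.23 ± 0.22) and mesenteric lymph node (-1.16 ± 0.22).

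Apoa1, the defining protein of high density lipoprotein, was the only tested member whose liver and intestinal libraries overlapped. Liver read 10919.9, 10696, 15044 and 16685 CPM and small intestine 13552, 9779, 7445 and 9775 CPM. The highest intestinal library therefore stood above 2 of the liver libraries. The intestinal mean was 527 times that of the next tissue. Brain followed at 19.2 CPM ± 27, in which replicate 3 read 59.7 and the others 5.04 to 6.26 CPM, and without replicate 3 the brain mean was 5.74 CPM ± 0.630 (n = 3). Blood read 34.1, 6.66, 9.69 and 10.1 CPM, heart 8.23 to 20.3 CPM and kidney 5.41 to 9.10 CPM. Lung had no read in 4 libraries, which allows up to 0.577 CPM. Liver varied by a factor of 1.56 between its libraries, an SD of log2 values that exceeded that of 93.2% of the 2092 genes at 100 CPM or more in liver. Apoe in the same libraries varied by a factor of 1.06.

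Apoa2, a structural protein of high density lipoprotein, was all but limited to liver. The 4 liver libraries read 27272, 26620.0, 26524 and 25162 CPM. The next tissue, heart, read 12.6, 9.77, 13.9 and 27 CPM, so the liver mean was 1667 times the heart mean. Kidney read 12.3 to 15.7 CPM, blood 4.28 to 24.7 and small intestine 6.10 to 16.3 CPM, and all tissues below liver overlapped with their neighbour in the order. In the fit Apoa2 was also called higher in heart (log2 fold change 1.85 ± 0.31), kidney (1.69 ± 0.28), small intestine (1.09 ± 0.33) and blood (1.04 ± 0.34), tissues in which 20.7%, 21.8%, 19.9% and 18.1% of all genes were called higher. Without small intestine replicate 4 the intestinal value was 0.76 and the call was lost. These low levels are set beside albumin below, and whether they come from liver RNA was not tested.

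Apoa4, which enterocytes secrete with chylomicrons, was an intestinal gene. Small intestine read 2736, 1649, 1254 and 2415 CPM and liver 92.3, 84.1, 67.8 and 109 CPM, without overlap. The pooled counts gave an intestinal level 22.1 times that of liver (95% interval 20.3 to 24.2, counting error only). Kidney followed at 1.69 to 5.24 CPM and female reproductive tract at 0 to 3.64 CPM, and lung and skin had no read. In the fit kidney and female reproductive tract were called higher than the log-scale mean of the other tissues, where 21.8% and 23.1% of all genes were. The log2 fold change was 1.45 in kidney (adjusted p = 0.00706) and 1.20 in female reproductive tract (adjusted p = 0.0369). Both sizes depend on the small count added by the fit, as lung and skin had no read, and so do these calls. The annotation places 632 of the 1815 exonic bases of Apoa4 opposite the antisense gene Gm10680, among them 293 of its last 500, and Gm10680 had no read in any library. A further 634 lie opposite Gm47528, none of them among the last 500, and its 5 reads were all in female reproductive tract, where Apoa4 had 30. The part of this overlap in the Apoa4 value of that tissue was not tested. Colon had 2 reads of Apoa4 in 4 libraries, and small intestine 17643.

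Apoa5, which promotes the lipolysis of triglyceride at low plasma abundance, was a liver gene. The liver libraries read 378, 373, 431 and 388 CPM, 2252 reads in all. Small intestine had 2 reads, 5 tissues had 1 read each, and the other 8 tissues had none, which allows from 0.152 CPM in inguinal lymph node to 0.684 CPM in colon. The pooled liver level was 1785 times the intestinal one, with an interval of 493 to 14745 that reflects the 2 reads.

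Apoc3, an inhibitor of lipoprotein lipase and of particle uptake, had the same 3 highest tissues as Apob. Liver read 11048, 10808, 10397 and 9885 CPM, small intestine 2787, 1560.1, 1434 and 2738 CPM, and kidney 35.5, 28.3, 20.0 and 22.8 CPM, with no overlap among them. Heart came next at 6.93 CPM ± 3.91 and did not reach the kidney values. The log2 fold change against the other tissues was 11.40 ± 0.14 in liver, 8.93 ± 0.14 in small intestine and 2.16 ± 0.25 in kidney. Apoc3 was called lower in 7 tissues: lung (-5.12 ± 0.95), spleen, inguinal lymph node, skin, colon, thymus and bone marrow (-1.26 ± 0.50). Within small intestine Apoc3 and Apoa4 spread over a factor of 1.94 and 2.18, more than 98.4% and 98.5% of the 1806 genes at 100 CPM or more in that tissue, and both read high in replicates 1 and 4 and low in replicates 2 and 3. The summed enterocyte markers also varied in small intestine, from 16189 to 26001 CPM, and its part in this spread was not tested.

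Apoc1, an exchangeable apolipoprotein of several particle classes, was high in liver and had second sites outside the gut. Liver read 15126, 15168, 13931 and 12746 CPM. Skin read 208, 225, 239.9 and 243 CPM, and lung 72.3, 53.1, 79.5 and 40.3 CPM, with no overlap between the 3. Thymus (24.8 to 46.9 CPM) and mesenteric lymph node (11.7 to 40.3 CPM) overlapped with the tissues next to them, and small intestine, at 4.55 CPM ± 3.32, was near the bottom of the order. Against the other tissues Apoc1 was called higher in skin (log2 fold change 3.59 ± 0.16) and lung (1.56 ± 0.23), in which 18.4% and 16.8% of genes were called higher. It was called lower in small intestine (-2.49 ± 0.36) and in brain (-2.03 ± 0.31), where 16.1% of all genes were called lower, and also in blood, bone marrow, colon, heart and spleen.

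Apoc2, the activator of lipoprotein lipase, had 1 read in the 60 libraries, in liver replicate 1, and was not tested. In the annotation 646 of its 813 exonic bases, and 265 of the last 270, are shared on the same strand with the gene Gm44805, which had no read. How reads that fall on both genes were counted is not stated, and its part in the count of Apoc2 was not tested. Apoc4, its neighbour and no member of the group, had 119 of 2537 exonic bases in common with Gm44805 and none of the last 230, and read 1741 CPM ± 53.9 in liver.

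Apoe, the receptor ligand that many cell types make, was present in all 60 libraries. Liver read 30745, 31496, 32514 and 31857 CPM. Inguinal lymph node read 3417, 2658, 3166 and 2133 CPM, skin 2449, 2373, 2152 and 2010.0 CPM, and mesenteric lymph node 1978, 2160.2, 1756 and 1818 CPM, each overlapping with the next. Brain (1298 to 1439 CPM), spleen (980.4 to 1091 CPM) and thymus (674 to 943 CPM) then formed steps that did not overlap. The remaining 8 tissues ran from 583 CPM ± 150.4 in female reproductive tract to 269 CPM ± 28.7 in bone marrow, each overlapping with its neighbour. Beside liver, Apoe was called higher in inguinal lymph node (log2 fold change 1.63 ± 0.10), skin (1.27 ± 0.10) and mesenteric lymph node (1.03 ± 0.11), tissues in which 17.1%, 18.4% and 17.2% of all genes were. In brain its log2 fold change was 0.48 ± 0.11, below the size needed for a call. It was called lower in bone marrow (-2.01 ± 0.14), colon (-1.62 ± 0.14), blood (-1.24 ± 0.13), small intestine (-1.11 ± 0.13) and lung (-1.02 ± 0.13), where 16.1%, 14.4%, 17.8%, 8.5% and 12.3% of all genes were called lower.

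Calls on the low side were spread over the other tissues. Lung had 5 members called lower (12.3% of all genes), and bone marrow (16.1%), colon (14.4%), skin (6.38%) and spleen (9.16%) had 4 each. Blood (17.8%), inguinal lymph node (6.7%), mesenteric lymph node (4.58%) and thymus (12.1%) had 2 each, and brain (16.1%), heart (12.9%) and female reproductive tract (5.31%) had 1 each. Apoa2 was called lower in 7 tissues, from -1.63 ± 0.48 in thymus to -4.05 ± 0.75 in female reproductive tract. Bone marrow, spleen and thymus were the tissues with no member called higher, where 17.6%, 17.8% and 18.9% of all genes were.

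Macrophage genes were set beside Apoe because macrophages are known to make it. The summed level of 12 macrophage genes was highest in spleen (1983 to 2108 CPM), where Apoe averaged 1062 CPM, and came next in mesenteric (1142 to 1706 CPM) and inguinal lymph node (750.4 to 1369.6 CPM), both of which were called higher for Apoe. It was 801 to 926 CPM in bone marrow, the tissue with the lowest Apoe, 373 to 1023 CPM in skin and 212 to 234 CPM in brain. Over the 14 tissue means without liver, Pearson's r of the log2 values was 0.44 and Spearman's rho 0.35, a description of 14 points that share 1 table, and the part of macrophage RNA in the Apoe levels was not tested. The 8 genes of an astrocyte list, a cell type also known to make Apoe, summed to 3890.0 to 3980.3 CPM in brain, but the list is not exclusive and summed to 1281 to 2149.8 CPM in liver. The 7 adipocyte genes ranged in sum from 44.7 to 4415 CPM among the 4 inguinal and from 1955 to 11797 CPM among the mesenteric lymph node libraries, and their part in the lymph node levels was not tested.

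Compared directly, liver and small intestine divided the members. Of the 9 tested, 6 were called higher in liver, 2 higher in small intestine and 1 was not called, against 20.2% and 24.2% of the 11676 genes tested, and the median log2 fold change was 2.77 against -0.04. The largest differences were those of Apoc1 (log2 fold change 11.68 ± 0.35), Apoa2 (11.46 ± 0.30) and Apoa5 (10.46 ± 0.26), which averaged at most 9.88 CPM in small intestine. Apoc1 and Apoa5 had 40 and 2 reads in small intestine and passed the filter on low counts through liver, so their calls were close to fixed. Apoe, present in both, differed by 6.08 ± 0.22. Apob (2.77 ± 0.15) and Apoc3 (2.36 ± 0.21) were high in both and higher in liver. Apoa4 (-4.46 ± 0.24) and Mttp (-1.36 ± 0.12) were higher in small intestine. Apoa1 differed by 0.45 ± 0.21 with adjusted p = 0.0614, and with scaling by library totals alone its sign turned to -0.40.

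**Figure D2:**
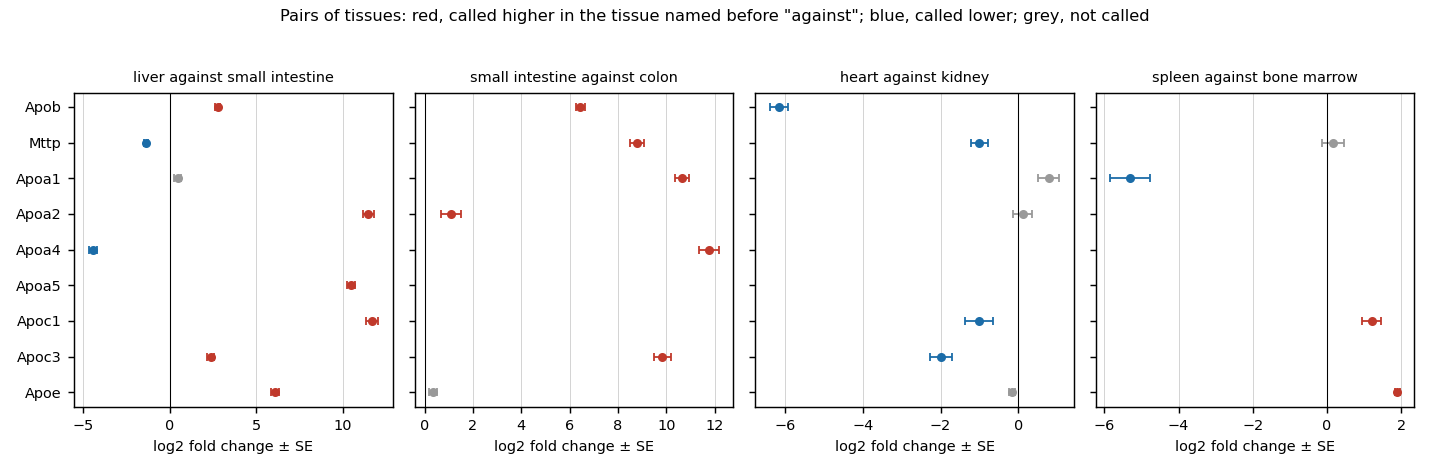
Log2 fold change with its standard error for the members tested in 4 pairs of tissues; red points were called higher in the tissue named before "against", blue points lower, and grey points were not called. Between liver and small intestine only Apoa4 and Mttp are blue, and between small intestine and colon 6 genes are red while Apoe sits near 0.

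The intestinal members were expressed in the small bowel and at far lower levels in colon. Against colon, 6 of 7 tested members were called higher in small intestine, where 13.5% of the 10773 genes tested were. The median was 8.79 against -0.03, and none was higher in colon, where 12.2% of genes were. In the 4 colon libraries Apoa4 had 2 reads, Mttp 6, Apoc3 9, Apob 24 and Apoa1 25. They passed the filter on low counts through small intestine, so a call of higher in colon was hardly open to them. Apoa4 differed by 11.77 ± 0.41, Apoa1 by 10.65 ± 0.31, Apoc3 by 9.84 ± 0.35, Mttp by 8.79 ± 0.27 and Apob by 6.44 ± 0.19. Apoa2 differed by 1.09 ± 0.43 (adjusted p = 0.0401) and lost its call when colon replicate 2, 3 or 4 was left out. Apoe differed by 0.34 ± 0.15 (adjusted p = 0.0726), and by -0.0657 with library totals alone. Colon libraries were shallow, at 750212 to 951914 counts.

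Between liver and brain all 9 tested members were called higher in liver, as were 24% of the 13523 genes tested, with a median of 9.73 against -0.26, and none was higher in brain, where 35.9% of genes were. The smallest difference was that of Apoe (4.49 ± 0.10), followed by Mttp (4.69 ± 0.12), Apoa4 (5.38 ± 0.39), Apoa1 (9.40 ± 0.53) and Apob (9.73 ± 0.39). Apoc3 (10.78 ± 0.23), Apoc1 (11.13 ± 0.17), Apoa5 (11.53 ± 0.22) and Apoa2 (11.95 ± 0.17) differed most. Apoa4, Apoa5 and Apob had 26, 1 and 51 reads in brain. They passed the filter on low counts through liver, so their calls were close to fixed. Without brain replicate 3 Apob differed by 12.10, Apoa4 by 7.53 and Apoa1 by 11.09, and the median of the 9 was 11.14. Brain against the mean of the other tissues had a single member called higher, Apoa1 (log2 fold change 1.52, adjusted p = 0.000314), where 27.7% of all genes were. Without replicate 3 its value was -0.19 and no member was called higher in brain.

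Heart and kidney differed in 4 of 7 tested members, all higher in kidney, where 23.1% of the 12340 genes tested were called, and none was higher in heart, where 17% were. Apob was lower in heart by a log2 fold change of -6.16 ± 0.24 and Apoc3 by -1.99 ± 0.28. Apob had 11 reads in heart and passed the filter on low counts through kidney, so its call was close to fixed. Apoc1 (-1.02 ± 0.36) and Mttp (-1.01 ± 0.22) stood close to the size needed for a call, and only 2 members remained called when heart replicate 1 or kidney replicate 3 was left out. Apoa2 (0.11 ± 0.25), Apoa1 (0.77 ± 0.28) and Apoe (-0.16 ± 0.07) were not called, and with library totals alone Apoa2 (-0.72) and Apoa1 (-0.0556) turned in sign.

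Among lymphoid organs, 4 members were tested in each pair. Spleen exceeded bone marrow in Apoe (log2 fold change 1.89 ± 0.07, adjusted p = 2.53e-20) and Apoc1 (1.20 ± 0.26), as 16.2% of the 12238 genes tested did, and was below it in Apoa1 (-5.31 ± 0.53), as 14.8% were. Mttp differed by 0.16 ± 0.31 and was not called, and the median of the 4 was 0.68 against 0.03. Apoa1 in bone marrow read 5.61 to 8.89 CPM, with albumin at 19.2 CPM, and in spleen it had 2 reads. Macrophage genes summed to 1983 to 2108 CPM in spleen and 801 to 926 CPM in bone marrow, and their part in the Apoe difference was not tested. Mesenteric exceeded inguinal lymph node in Apoc3 (3.17 ± 0.65, adjusted p = 0.00411), as 5.44% of the 13164 genes tested did, at 3.20 to 7.99 CPM against 0 to 2.16 CPM, and the median of the 4 tested members was 0.34 against 0.02. Apoc1 was 1.09 ± 0.40 higher with adjusted p = 0.0548, Mttp was -0.41 ± 0.24 with adjusted p = 0.219, and Apoe was -0.46 ± 0.14 with adjusted p = 0.0226, too small a difference for a call, so that none was higher in inguinal lymph node, where 1.78% of genes were.

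Reads of liver genes in tissues that are not known to make them were set beside albumin, the most abundant secreted product of hepatocytes. For each member the mean CPM was divided by the mean Alb CPM of the same tissue and expressed in multiples of the same ratio in liver. Albumin itself had 1 read in the 4 lung libraries, and in spleen it had 8 reads in replicate 1 and 1 in replicate 4, so no multiple is given for these tissues. In the others Apoa2 lay between 0.118 and 2.44 multiples. It was 0.956 in blood, 1.14 in heart, 1.83 in kidney and 1.93 in small intestine, the 4 tissues other than liver in which Apoa2 was called higher. Apoa1 was 1.83 in heart, 1.86 in kidney, 2.63 in blood, 5.29 in colon, 7.34 in thymus, 8.87 in brain with replicate 3 included, and 3915 in small intestine. Apoc3 was 1041 in small intestine, 8.63 in kidney, 8.42 in thymus and 5.07 in mesenteric lymph node. The Apoc3 level itself was 20.0 to 35.5 CPM in kidney and 0.917 to 2.90 CPM in thymus. Apob was 785 in small intestine, 103 in kidney, 20.4 in colon and 0.787 in heart. Apoc1 was 159 in skin, 114 in thymus, 50.1 in inguinal lymph node and 1.64 in small intestine. Albumin reads were also few in thymus (17, 11, 2 and 0), inguinal lymph node (2, 0, 20 and 12) and colon (9, 5, 14 and 6). The multiples of these tissues are therefore imprecise. In kidney the multiples were 236 for Mttp, 134 for Apoa4, 103 for Apob and 62.3 for Apoe. They were 8.63 for Apoc3, 2.89 for Apoc1, 1.86 for Apoa1 and 1.83 for Apoa2, and Apoa5 had no read in kidney. Whether RNA from liver was carried into these libraries was not tested.

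**Figure D3:**
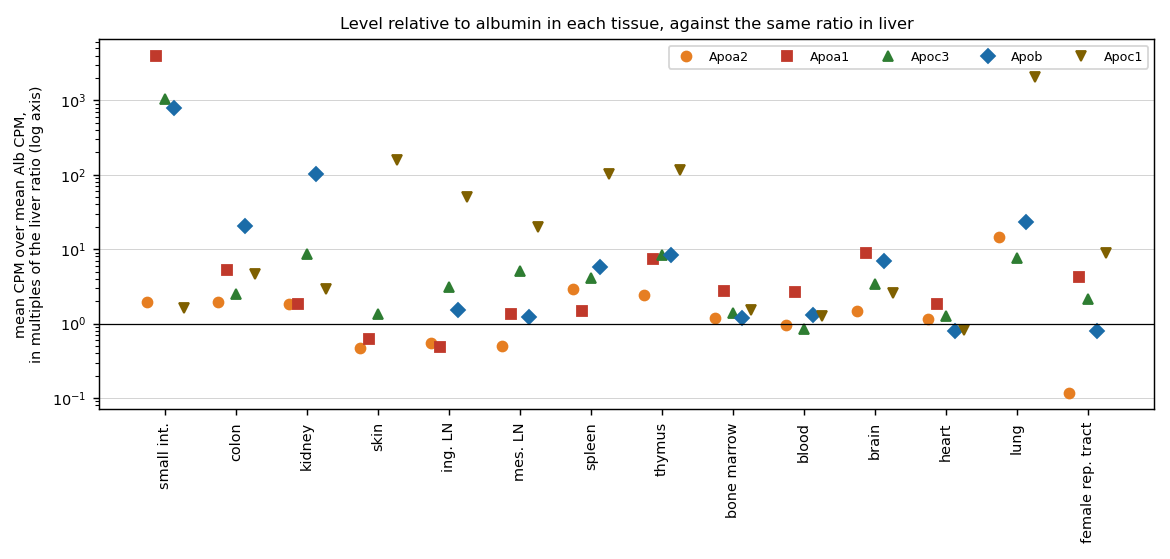
Mean CPM of 5 genes divided by mean albumin CPM in each of 14 tissues, in multiples of the liver ratio on a log axis; the line at 1 is the liver proportion and genes with no read in a tissue are not drawn. Apob lies at 785 in small intestine and 103 in kidney, and Apoc1 at 159 in skin, while the points of lung and spleen rest on 1 and 9 albumin reads. Those of thymus, inguinal lymph node and colon rest on at most 17, 20 and 14 albumin reads in a library.

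Neighbours on a chromosome did not share 1 pattern. On chromosome 9, Apoa1 and Apoc3 were high in liver and small intestine, Apoa4 mainly in small intestine and Apoa5 in liver with 1 or 2 reads in 6 other tissues, over a stretch that also holds the genes Sik3, Zpr1 and Bud13 at its edges. Those 3 flanking genes varied between their lowest and highest tissue by factors of 3.68, 4.46 and 4.82. On chromosome 7, Apoc4 read 1741 CPM in liver and at most 1.06 CPM elsewhere, Apoc1 had its second site in skin, and Apoe was present throughout, while the flanking genes Clptm1 and Tomm40 varied by factors of 2.99 and 3.09. Across the 15 tissue means, Pearson's r of log2(CPM + 1) was 0.97 between Apoa1 and Apoc3, 0.96 between Apoa4 and Mttp, 0.96 between Apob and Apoc3, 0.94 between Apoa2 and Apoa5, and 0.20 between Apoa4 and Apoc1. These coefficients describe 15 points from 1 table and are given with no test. The one between Apoa2 and Apoa5 rests on liver, as Apoa5 had at most 2 reads in any other tissue.

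**Figure D4:**
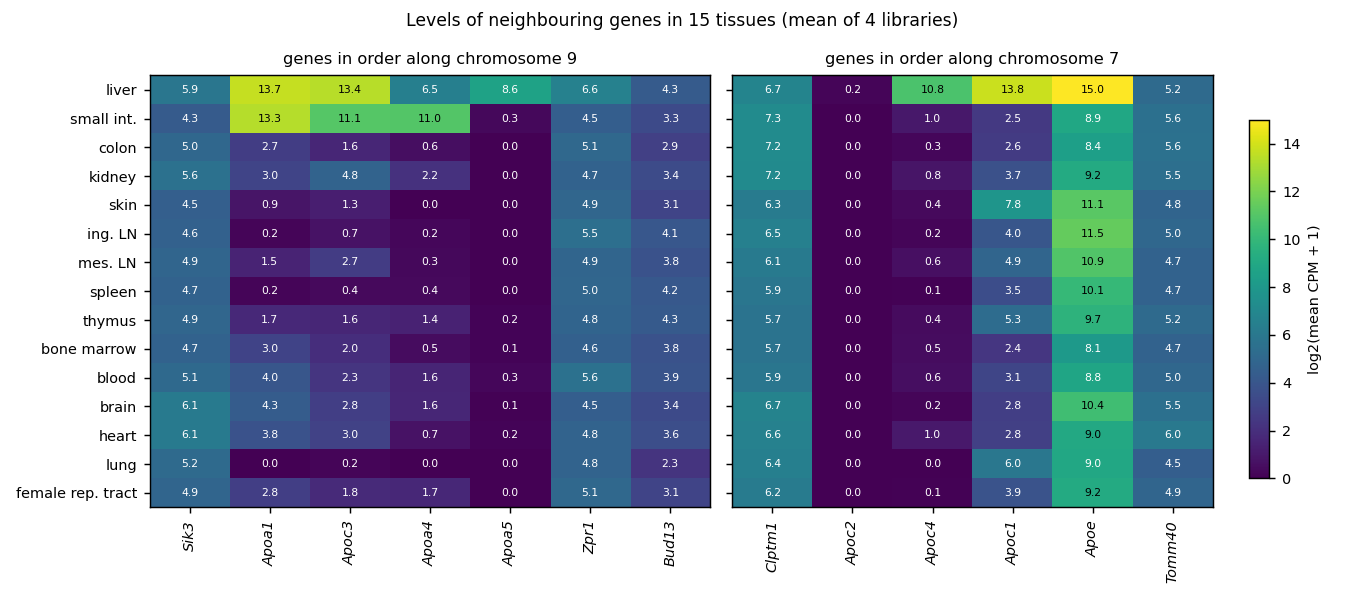
Heat map of log2(mean CPM + 1) over 4 libraries for genes in their order along chromosomes 9 and 7 (columns) in 15 tissues (rows), to be read down a column since levels are not compared between genes. The flanking genes are even from top to bottom, Apoa1 and Apoc3 are bright in liver and small intestine, and Apoe is bright in every row.

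The pathway around the members was read from 6 lists with 71 other genes, of which 69 were tested across tissues. In liver 48 were called higher and 7 lower, where 18.4% and 16.7% of all genes were, with a median log2 fold change of 2.88 against -0.25 over all genes. In small intestine 35 were higher and 8 lower, against 19.9% and 8.5% of all genes, with a median of 1.02 against 0.01. In kidney 22 were higher and 5 lower, against 21.8% and 9.52% of all genes, with a median of 0.09 against 0.03. Between liver and small intestine 63 were tested, of which 40 were higher in liver and 12 in small intestine, against 20.2% and 24.2% of all genes, with a median of 1.69 against -0.04.

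Genes of particle assembly and export, 14 of 15 tested, held higher calls in both organs: 11 were higher in liver and 11 in small intestine against the other tissues (18.4% and 19.9% of all genes), and none lower in either (16.7% and 8.5%). In liver the largest differences were those of A1cf, a cofactor of Apob mRNA editing (9.22), Soat2, which esterifies cholesterol (6.12), Tm6sf2 (5.21) and Dgat2, an enzyme of triglyceride synthesis (3.67). In small intestine they were those of Mogat2, which rebuilds triglyceride from absorbed monoacylglycerol (9.25), Soat2 (7.64), Tm6sf2 (7.28) and A1cf (6.29). Set against each other the list split 5 to 5. Mogat2 (-8.00 ± 0.25, 1.23 CPM in liver and 341 in small intestine) and Dgat1 (-4.68 ± 0.17, 38.8 and 1032 CPM) were higher in small intestine, and A1cf (2.79 ± 0.13) and the droplet protein Plin2 (2.75 ± 0.17) in liver. In kidney A1cf (6.83, 30.4 CPM) and Mogat2 (4.83, 19.5 CPM) were among 5 higher, beside the kidney level of Apob.

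The 8 other apolipoproteins were mostly liver genes, with 6 higher and 1 lower there, against 18.4% and 16.7% of all genes. Apoh (12.92), Apoc4 (12.39), Apof (11.81) and Apon (11.59) led, and Apod, which had no read in liver and 291 CPM in brain, was lower. All 6 that could be tested against small intestine were higher in liver, Apof by 12.19 ± 0.27, Apom by 11.43 ± 0.28, Apoc4 by 10.88 ± 0.27 and Apoh by 10.73 ± 0.22. In small intestine 1 of the 8 was called higher and 1, Clu, lower (-2.53 ± 0.13), against 19.9% and 8.5% of all genes. Apom, a carrier of sphingosine 1-phosphate on high density lipoprotein, was also called higher in kidney (7.67), at 111 CPM ± 3.14 against 767 CPM ± 36.1 in liver.

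Lipases and factors of plasma remodelling were also high in liver, with 10 of 12 called higher against 18.4% of all genes. Pon1, an esterase bound to high density lipoprotein (11.04), Lipc, hepatic lipase (8.89), and Lcat, which esterifies plasma cholesterol (8.63), were among them. Lpl, lipoprotein lipase, which acts in muscle and fat, was lower (-1.37 ± 0.36). All 11 tested against small intestine were higher in liver, with Pon1 at 11.79 ± 0.25 and Lcat at 9.50 ± 0.21. In small intestine itself 3 of 12 were higher, against 19.9% of all genes, among them Lipg (1.22) and Angptl4 (1.11 ± 0.27), and Lcat (-1.52 ± 0.43) and Lpl (-3.45 ± 0.43) were lower.

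Receptors and their regulators held calls in both directions. In liver 5 of 14 were higher (18.4% of all genes), among them Lsr (4.11 ± 0.23) and Scarb1, the receptor of high density lipoprotein (2.75 ± 0.15), and 4 were lower (16.7%), Sorl1, Lrp8, Amn and Sort1. In small intestine 6 were higher (19.9%), led by Cubn and Amn, which form the cubam receptor (7.81 ± 0.14 and 7.66 ± 0.15), and Vldlr, Scarb1, Mylip and Lrp8 were lower (8.5%). Between the organs Amn (-9.39 ± 0.36) and Cubn (-8.73 ± 0.32) were the largest differences, Sorl1 (-3.28 ± 0.18) and Sort1 (-2.56 ± 0.15) were also higher in small intestine, and Scarb1 (3.95 ± 0.19) was higher in liver. In kidney Lrp2, megalin, an uptake receptor for filtered apolipoproteins, read 1995 CPM ± 119 and Cubn 366 CPM ± 22.4.

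Of the 6 sterol export genes, 4 were higher in liver (18.4% of all genes) and 3 in small intestine (19.9%), and Abcg1 was lower in both (-1.05 ± 0.19 and -2.53 ± 0.20). The half-transporters Abcg5 and Abcg8, which return sterols to bile and gut lumen, led in each, with log2 fold changes of 8.62 and 9.04 in liver and 9.73 and 9.72 in small intestine, and were not called between the organs. Abca1, which lipidates apolipoprotein A-I, was higher in liver than in small intestine (2.41 ± 0.14, 156 and 30.4 CPM), as were Abcg1 (1.44 ± 0.33) and the sterol sensor Nr1h3 (1.12 ± 0.15).

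Of 16 transcription factors of hepatocyte and enterocyte lipid genes, 15 were tested, with 12 higher in liver (18.4% of all genes), 11 in small intestine (19.9%) and none lower in either (16.7% and 8.5%). Creb3l3 (8.96 and 8.98) and Hnf4a (8.69 and 8.35) were high in both, at 389 and 394 CPM and at 603 and 485 CPM, and neither was called between them. Nr1h4, the bile acid receptor (7.51), and Foxa2 (7.02) followed in liver, and Cdx2 (9.34) and Hnf4g (8.67) in small intestine. Cdx2 (-8.15 ± 0.38), Hnf4g (-7.08 ± 0.33) and Gata4 (-2.10 ± 0.16) were higher in small intestine than in liver, and Ppara (2.88 ± 0.21) and Foxa2 (2.77 ± 0.28) were higher in liver. Hnf4a was at 413 CPM ± 17.5 in kidney and 396 CPM in colon, tissues in which Apob read 104 and 5.49 CPM and Apoa1 7.28 and 5.49 CPM.

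**Figure D5:**
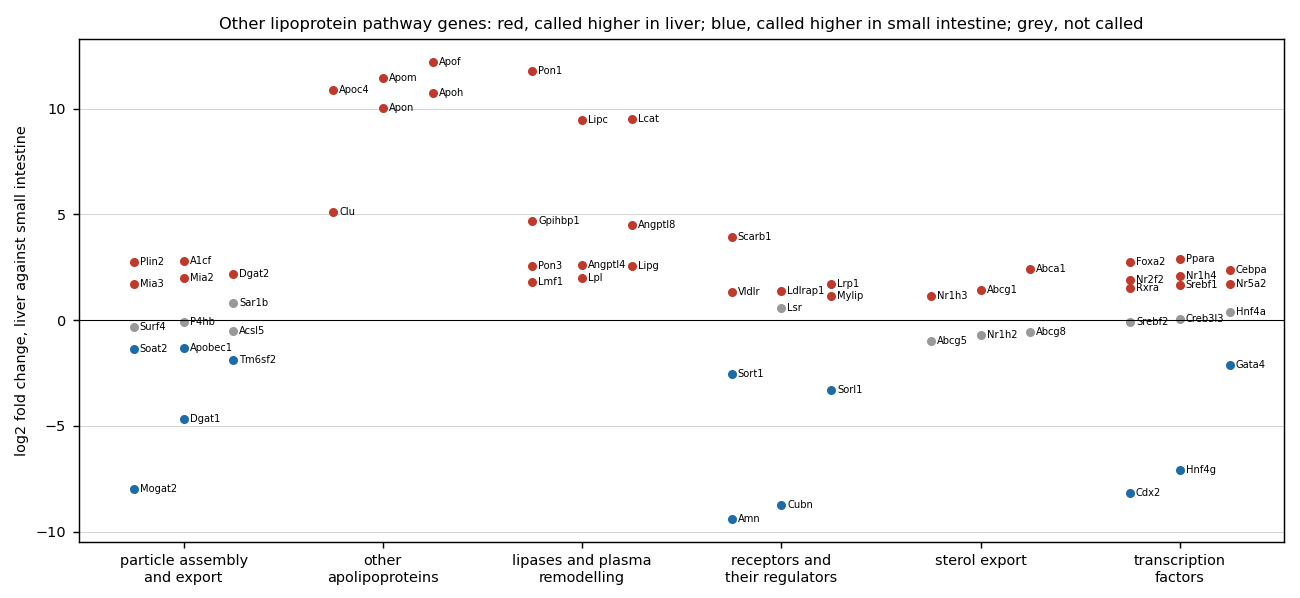
Log2 fold change of liver against small intestine for 60 genes of the 6 pathway lists, with red for genes called higher in liver, blue for genes called higher in small intestine and grey for genes not called. Other apolipoproteins and lipases are all red, whereas assembly genes split, with Mogat2 at -8.00 and A1cf at 2.79.

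The genes whose pattern over the 15 tissue means was most like each member were found by Pearson's r of log2(CPM + 1). They were Ahsg (0.98), Serpina3k and Ces1c for Apoa2, and Mup20, Sult3a1 and Urad for Apoa5, all at 1.00 when rounded. Apoa5 had 2252 reads in liver and at most 2 in any other tissue, so its r rests on the liver value. Apoa2 averaged 26395 CPM in liver and at most 15.8 elsewhere, and Apoc1 14243 and at most 229. Their r therefore also leans on liver. The nearest genes to Apob were A1cf (0.98), Smlr1 and Pcyt2. Apoa1 and Apoc3 had Cyp3a11 and Rdh7 among their 3, with r of 0.96 to 0.98. Abcg8 was listed for Apoa1, Apoa4 and Mttp, beside Gimd1 and Soat2 for Apoa4 and Leap2 and Ugt2a3 for Mttp. Apoc1 was nearest to Mup9, Elovl5 and Sec14l4 (0.93). Apoe had no close match, its nearest being Slc25a32, Serpina10 and Itih3 at 0.88 to 0.89.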

How the data were processed

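RNA was measured in 60 libraries of 15 mouse tissues, 4 per tissue. The authors deposited a table of whole-number counts per gene with gene symbols. The submitters' processing notes name FastQC, STAR, featureCounts and the genome build mm10, with no versions, and do not give the setting for strand and overlapping genes. Samples were grouped by their tissue label. Depth ran from 353605 to 5211133 counts, which bounds the precision of low levels. Limits for a count of 0 use 3 counts, and intervals are exact at 95%, both for counting error only.

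The counts were scaled by TMM and tested with edgeR 4.0.16 (quasi-likelihood test, R 4.3.3, limma 3.58.1) after a filter on low counts (minimum count 10, minimum total count 15). A gene could pass this filter through 1 tissue alone, and a higher call in that tissue was then close to fixed. In 1 fit over all libraries the log level of each tissue was compared with the mean log level of the 14 others, equally weighted. A further 6 pairs were fitted with their own libraries. P-values were adjusted by Benjamini and Hochberg over all genes tested, and a call needed an adjusted p below 0.05 and a log2 fold change past 1 in size. P-values measure only the spread between these samples, since the labels do not say more of their origin. The fit was tested on simulated data. Alternatives were DESeq2 1.42.0, its size factors, library totals alone, no filter, a replicate block, and leaving out libraries.

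The rule names the 10 members in each comparison; in the text, calls against the other tissues are given by count, with values for part of them. From each pathway list up to 4 genes are named by the size of their change among those called at 5 CPM or more, plus any called against the majority. Likeness names the 3 closest genes. The members and lists were chosen with earlier results of these data known. Promoter sequences are from RefSeq, GRCm38.p6. Some genes of the pathway lists are counted with their list but are not reported here by name.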

Additional observations from a re-analysis of the deposited data

Results flagged for a closer look

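Of 66 groups of 4 libraries examined, those in which a tested gene averaged at least 5 CPM, 4 had a library standing apart from the other 3, and chance gives about 1 in 20 such groups. Apoa1 in brain replicate 3 read 59.7 CPM against 5.04 to 6.26 CPM in the other brain libraries. The same library held Apob at 13.8 CPM, Apoc3 at 11.9 CPM and the intestinal gene Fabp2 at 45.6 CPM. Apoa1 in blood replicate 1 read 34.1 CPM against 6.66 to 10.1 CPM, in the library that also had the highest albumin level of the blood samples, 96.3 CPM. Apob in colon replicate 4 read 6.69 CPM against 5.04 to 5.15 CPM. Apoe in spleen replicate 3 read 980.4 CPM against 1085 to 1091 CPM, a low value among libraries that otherwise lay close together.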

How the results depend on the processing

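The counts of members higher in liver (9), in liver against brain (9) and between liver and small intestine (6 and 2) were the same when single replicates were left out. Leaving out 1 replicate gave 5 to 7 members higher in small intestine (6 in the full fit), 0 to 2 in brain (1), 5 to 6 in small intestine against colon (6), 1 to 2 higher in bone marrow than in spleen (1), 1 to 2 higher in mesenteric than in inguinal lymph node (1) and 2 to 4 higher in kidney than in heart (4). The brain count was 0 without brain replicate 3, also when liver replicate 4 was left out with it, and 2 without brain replicate 1, 2 or 4. With no filter on low counts 3 members were higher in bone marrow than in spleen and 3 in mesenteric than in inguinal lymph node.

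The labels do not say that a replicate number marks a mouse, and in none of 105 tissue pairs did all 4 same-numbered correlations exceed 0.1. With a replicate block 2 members were higher in mesenteric than in inguinal lymph node, as Apoc1 joined (log2 fold change 1.03), and the block changed no other count by over 1.5 times.

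Signs turned as follows, and the cause was not tested. In brain against the other tissues, leaving out libraries gave ranges of -0.19 to 1.85 for Apoa1, -1.56 to 1.00 for Apoa4, -1.58 to 0.0702 for Apoa5, -1.67 to 1.10 for Apob, -0.84 to 0.0522 for Apoc3 and -0.0595 to 0.14 for Mttp. Without brain replicate 3 and liver replicate 4 the values were -0.18 for Apoa1, -1.55 for Apoa4, 0.0405 for Apoa5, -1.67 for Apob and -0.0582 for Mttp. Apoa1 in kidney was -0.0354 with DESeq2 size factors, -0.36 with library totals alone and -0.0892 in the DESeq2 Wald test. With library totals alone Apoa1 was -0.40 in liver against small intestine, Apoe -0.0657 in small intestine against colon, and Apoa1 -0.0556 and Apoa2 -0.72 in heart against kidney. Apoa2 in heart against kidney ranged from -0.24 without heart replicate 4 to 0.30 without heart replicate 2.

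Library totals alone moved the median of all genes by -0.98 in liver, -1.26 in heart and -0.85 in liver against small intestine, where 1307 genes were then higher and 5346 lower in place of 2353 and 2820. With them liver or small intestine remained the highest tissue as before for 8 of 9 members, and Apoa1 was highest in small intestine.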
